A study of Homo sapiens with 15 samples.

Results

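The complement components and regulators described here are 9 genes, C1R, C1S, C3, C6, C7, CFB, CFI, SERPING1 and CD55, out of 57820 gene identifiers in the count table. They were chosen by name, with their levels in these libraries already known, so their own levels and fold changes are given as a description and without a test. The levels come from RNA-seq of A673, an established Ewing sarcoma cell line driven by the EWS/FLI fusion, in 15 libraries with 3 for each of 5 conditions. All cells carried a retroviral shRNA from day 1 and a retroviral cDNA vector from day 5, and were selected in 2 µg/mL puromycin and then 400 µg/mL hygromycin B until day 16. In iLuc cells the shRNA targeted luciferase and the vector was empty, which left endogenous EWS/FLI (endo-EF) in place. In iEF cells it targeted EWS/FLI, again with an empty vector. Rescue added to the iEF shRNA a cDNA for wildtype EWS/FLI (WT-EF), for a mutant without its EWS domain (Δ22) or for the mutant DAF. In DAF, alanines replace only part of the tyrosines of the EWS domain, in its amino-terminal region. DAF in this text is always that EWS/FLI mutant, and never the decay-accelerating factor, which is the protein of the CD55 gene. Each condition was made in one cell line, and the study describes a replicate as one round of knockdown and rescue, so the spread is that between such rounds of the same line.

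Complement is a cascade of plasma proteins that marks cells for removal and can lyse them. C1R and C1S are the paired serine proteases of the C1 complex and start the classical pathway. C3 is the central component that is cleaved and deposited on surfaces, and CFB supplies the protease of the alternative pathway C3 convertase. C6 and C7 join C5b in the membrane attack complex. Of the regulators, SERPING1 (C1 inhibitor) blocks C1R and C1S, CFI cleaves C3b and C4b with the help of cofactors, and CD55 is a membrane protein that speeds the decay of C3 convertases. The liver makes most circulating complement, but many other cell types transcribe some of these genes.

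In the GRCh37 annotation, C1R (ENSG00000159403, chr12:7187513-7245203) and C1S (ENSG00000182326, chr12:7096351-7178336) lie near each other on opposite strands. C6 (ENSG00000039537, chr5:41142218-41261540) and C7 (ENSG00000112936, chr5:40909594-41020318) are also neighbours on opposite strands. The other members are C3 (ENSG00000125730, chr19:6677715-6730573), CFB (ENSG00000243649, chr6:31913427-31919863), CFI (ENSG00000205403, chr4:110652164-110723306), SERPING1 (ENSG00000149131, chr11:57364860-57386644) and CD55 (ENSG00000196352, chr1:207494864-207560149). Parts of CFB overlap C2 (73 counts in all libraries), C3 overlaps GPR108 (6922) and C1R overlaps C1RL (797) on the same strand, and C1S overlaps LPCAT3 (13337) on the other. These are overlaps of whole gene spans in the annotation used here. Neither the annotation used for counting nor whether the counting used strand is stated. A read that falls in counted exons of both genes of a pair cannot be assigned. Whether the pairs share counted exons was not tested, so the counts of these members are uncertain to that extent.

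FLI proteins bind DNA at GGAA cores, and EWS/FLI is also known to bind tandem GGAA repeats. The promoters of the 4 members that differed most between iLuc and iEF are therefore shown, as the 250 bases upstream of the start in RefSeq (GRCh38.p14), 5′ to 3′ on the strand of the gene. Capitals mark GGAA, or TTCC where the core lies on the other strand.
C6 promoter, chr5:41261470-41261719, minus strand: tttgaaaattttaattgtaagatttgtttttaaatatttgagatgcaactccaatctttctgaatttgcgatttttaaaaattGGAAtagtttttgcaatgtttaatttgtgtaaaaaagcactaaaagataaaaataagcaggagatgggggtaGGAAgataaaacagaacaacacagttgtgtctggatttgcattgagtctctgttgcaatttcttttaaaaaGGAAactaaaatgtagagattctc
C7 promoter, chr5:40909247-40909496, plus strand: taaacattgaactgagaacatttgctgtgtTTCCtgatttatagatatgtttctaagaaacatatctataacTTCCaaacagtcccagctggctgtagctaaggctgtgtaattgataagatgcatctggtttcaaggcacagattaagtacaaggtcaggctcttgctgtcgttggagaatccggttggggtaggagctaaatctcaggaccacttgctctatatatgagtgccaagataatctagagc
CFI promoter, chr4:109802000-109802249, minus strand: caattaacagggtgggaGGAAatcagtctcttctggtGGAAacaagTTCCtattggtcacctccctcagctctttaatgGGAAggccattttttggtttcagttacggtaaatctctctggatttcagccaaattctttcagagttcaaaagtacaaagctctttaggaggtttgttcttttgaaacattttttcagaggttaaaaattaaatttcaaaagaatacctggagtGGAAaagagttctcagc
CD55 promoter, chr1:207321428-207321677, plus strand: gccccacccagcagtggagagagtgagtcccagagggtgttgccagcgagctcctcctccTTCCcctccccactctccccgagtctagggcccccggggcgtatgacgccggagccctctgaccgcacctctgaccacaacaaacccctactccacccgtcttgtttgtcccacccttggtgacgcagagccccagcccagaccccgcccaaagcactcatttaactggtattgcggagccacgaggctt

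RefSeq promoters were matched for 6 of the 9 members, with 8 starts in all, and C1S, C3 and SERPING1 had no entry. Each of the 8 sequences held GGAA on either strand, as did 92.7% of all 35116 promoters searched over the same length. The printed promoter of CFI held 5 GGAA cores, that of C6 held 3, that of C7 held 2 and that of CD55 held 1, against a median of 3 over all promoters. None of the 8 held GGAAGGAA, which 3.06% of all promoters did. CCGGAA, which contains the GGAA core, was found in CFB alone and in 14.5% of all promoters. Tandem runs of at least 4 GGAA units were also located on GRCh37, where there were 16453. No member had such a run within 5000 bases of its annotated 5′ end, compared with 3.65% of 20163 protein-coding genes that did. The longest run nearest to a member lay 48.2 kb upstream of CFI and had 17 units. It is shown with 20 flanking bases on each side, and capitals mark the units.
Repeat near CFI, chr4:110771492-110771599, plus strand: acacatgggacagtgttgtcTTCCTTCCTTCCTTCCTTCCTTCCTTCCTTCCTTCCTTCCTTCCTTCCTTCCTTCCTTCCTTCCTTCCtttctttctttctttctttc
C6 had a run of 4 units 51.2 kb upstream and another of 12 units within 100000 bases, a distance within which 54.5% of protein-coding genes have a run. The nearest run to SERPING1 had 12 units and lay 25.8 kb downstream, and that to C1R had 4 units, 8.47 kb upstream. For C3 it had 4 units, 26.3 kb upstream, and for C1S 5 units, 86.3 kb downstream. C7, CD55 and CFB had no run within 100000 bases. These matches are a description of the sequence and do not show binding.

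The libraries held between 28659475 and 41859880 counts, with a median of 32943231. Expression is given as CPM, the count of a gene scaled by the library size after TMM normalization. Log2 fold changes are given with the standard error of the edgeR model, over 3 libraries per condition. FLI1, whose counts include the 3′ part of EWS/FLI transcripts, was lower in iEF than in iLuc (iLuc over iEF log2 fold change 1.77 ± 0.10, edgeR adjusted p 7.93e-09), and its counts in iEF were 491, 459 and 526 against 1570, 1705 and 1757 in iLuc. Its log2 fold change over iEF was 0.27 ± 0.10 with WT-EF (edgeR adjusted p 0.0538), 1.09 ± 0.10 with Δ22 (0.000446) and 0.74 ± 0.10 with DAF (0.000335). FLI1 counts pool endogenous transcripts with those of the construct, so these values do not measure how much of each construct was made. The paper shows the tagged proteins in rescued cells by Western blot. The 6 Ewing sarcoma markers had a summed level between 748 and 772 CPM in iLuc and between 83.4 and 100.03 CPM in iEF. CD99, one of these markers, had at most 3 counts in any library. Whether its reads were lost in alignment or counting was not tested, so this is not read as absence of its RNA. Leukocyte and macrophage markers summed to between 1.22 and 6.24 CPM in all libraries.

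C6 and C7, the terminal components, were high only in iLuc cells among the 5 conditions. C6 had 513, 620 and 716 counts in the iLuc libraries and 1, 4 and 2 counts in iEF. In CPM, C6 was at 15.7, 17.4 and 21.4 in iLuc and between 0.0263 and 0.135 in iEF. The iLuc and iEF libraries did not overlap, and the pooled counts gave a ratio of 265 (exact 95% interval 128 to 659, counting error only). C7 had 1123, 2003 and 2673 counts in iLuc against 5, 23 and 6 in iEF, or 34.3, 56.2 and 79.8 CPM against 0.131, 0.776 and 0.175 CPM. The pooled ratio for C7 was 171 (exact 95% interval 122 to 247). In bulk RNA such as this, fewer cells that express a gene and less RNA per cell cannot be told apart. Fitted log2 fold changes of iLuc over iEF were 8.02 ± 0.59 for C6 and 7.40 ± 0.38 for C7.

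WT-EF did not bring either gene near its iLuc level. C6 had 3, 23 and 49 counts in the WT-EF libraries, or 0.0831, 0.607 and 1.30 CPM. Replicates 2 and 3 of WT-EF lay above all iEF libraries, while replicate 1 lay within the range of iEF. The pooled ratio of WT-EF over iEF was 9.81 (4.53 to 25.2), and that of iLuc over WT-EF was 27.0 (21.4 to 34.5). C7 was at 0.0831, 0.317 and 0.453 CPM in WT-EF, which overlapped iEF, and the pooled ratio of iLuc over WT-EF was 198 (140 to 290). With Δ22 and DAF, C6 stayed between 0.0335 and 0.158 CPM and C7 between 0.205 and 0.834 CPM. These values overlapped those of iEF for both genes. Since the 3 replicate sets each have an iLuc, an iEF and a WT-EF library, the share of the difference from iEF to iLuc that WT-EF covered can be computed in CPM within each set. That share was 0.0298 ± 0.0275 (SD, n = 3) for C6 and -0.00206 ± 0.00591 for C7.

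**Figure D1:**
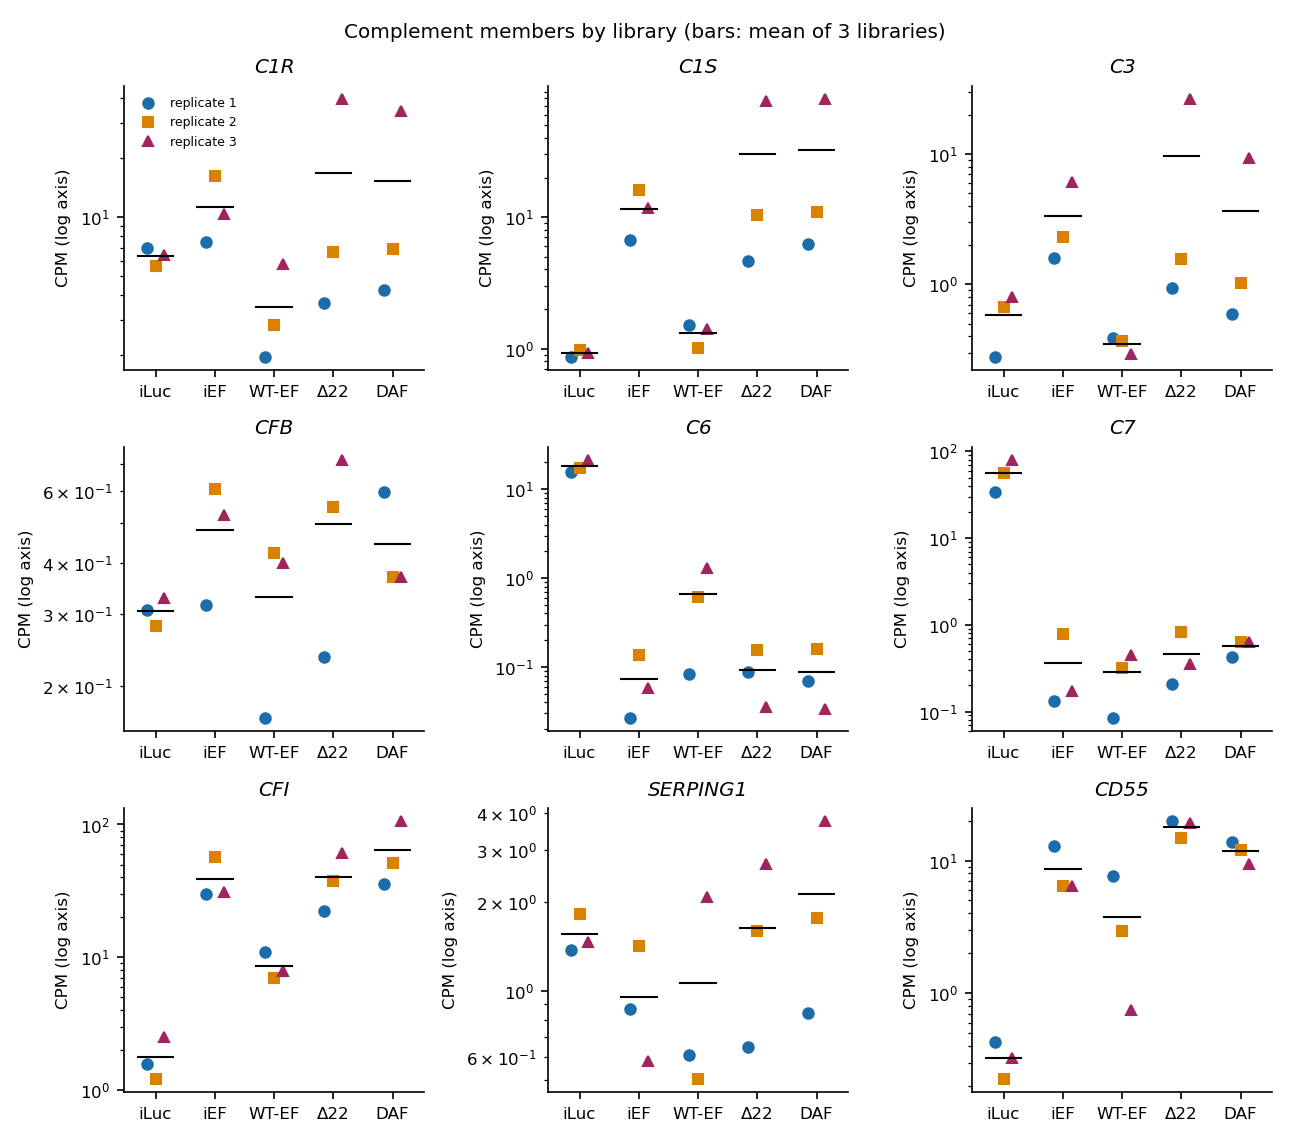
Levels of the 9 members in CPM on a log axis, in the 15 libraries grouped by condition, with points shaped by replicate number and a bar at the mean. C6 and C7 were high in iLuc alone, CFI and CD55 were lowest in iLuc, and replicate 3 of Δ22 and of DAF lay far above the other replicates for C1R, C1S and C3.

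The regulator CFI had the opposite pattern. Its levels were 1.59, 1.21 and 2.54 CPM in iLuc and 29.8, 56.5 and 31.0 CPM in iEF, with a log2 fold change of iLuc over iEF of -4.52 ± 0.43. In WT-EF cells it was at 11.0, 6.95 and 7.91 CPM. The 3 WT-EF libraries thus lay between all iLuc libraries and all iEF libraries, with no overlap on either side. The log2 fold change of WT-EF was -2.15 ± 0.37 over iEF and 2.37 ± 0.42 over iLuc. CFI was at 22.2, 37.3 and 61.0 CPM with Δ22 and at 35.8, 51.3 and 106 CPM with DAF, so both overlapped iEF and every library of each lay above every WT-EF library. In linear CPM, WT-EF covered a share of 0.791 ± 0.116 (SD, n = 3) of the difference between iEF and iLuc.

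CD55, the membrane regulator, was at 0.428, 0.224 and 0.328 CPM in iLuc and at 12.9, 6.44 and 6.398 CPM in iEF, a log2 fold change of -4.68 ± 0.51. In WT-EF it was at 7.59, 2.96 and 0.746 CPM, and the spread of these 3 libraries reached into the range of iEF at one end and close to iLuc at the other. The share covered by WT-EF was accordingly 0.425, 0.560 and 0.931 in sets 1, 2 and 3. Δ22 gave 19.9, 14.8 and 19.2 CPM, all above the highest of the iEF, WT-EF and DAF libraries. The log2 fold change of Δ22 over iEF was 1.18 ± 0.37, and CD55 was higher with Δ22 than with iEF by 1.54, 2.30 and 3.00 times in the 3 sets. DAF gave 13.8, 12.03 and 9.36 CPM, which overlapped iEF (log2 fold change 0.53 ± 0.37). The order of mean levels was Δ22, DAF, iEF, WT-EF and iLuc, where DAF and iEF, and iEF and WT-EF, overlapped.

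SERPING1, the C1 inhibitor, was at low levels in every condition. It was at 1.38, 1.82 and 1.46 CPM in iLuc, 0.867, 1.42 and 0.582 CPM in iEF, and 0.609, 0.502 and 2.08 CPM in WT-EF. With Δ22 and DAF the range was 0.645 to 3.76 CPM, and neighbouring conditions overlapped throughout the order of mean levels. Its log2 fold changes over iEF lay between -0.05 ± 0.51 with WT-EF and 0.93 ± 0.49 with DAF. Within the replicate sets, iLuc was 1.59, 1.29 and 2.51 times iEF, and WT-EF was 0.722, 0.284 and 0.553 times DAF. SERPING1 was not past the cutoff in the fit of all libraries, but it was for both of these comparisons when only the 6 libraries compared were fitted. Nothing is read from those calls, since SERPING1 was chosen with its levels known.

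Among the initiating proteases, C1S was at 0.856, 0.982 and 0.925 CPM in iLuc and at 6.65, 16.2 and 11.8 CPM in iEF. WT-EF libraries were at 1.52, 1.00 and 1.41 CPM. All iLuc and WT-EF libraries lay below all libraries of iEF, Δ22 and DAF. The log2 fold change was -3.77 ± 0.79 for iLuc over iEF and -3.19 ± 0.75 for WT-EF over iEF, and WT-EF covered a share of 0.946 ± 0.057 (SD, n = 3) of the difference. C1R, its partner protease, was at 6.97, 5.67 and 6.45 CPM in iLuc, 7.46, 16.1 and 10.3 CPM in iEF and 1.94, 2.83 and 5.78 CPM in WT-EF. Its log2 fold change over iEF was -0.78 ± 0.56 for iLuc and -1.95 ± 0.58 for WT-EF. The share covered by WT-EF was not a stable quantity for C1R, at 11.2, 1.27 and 1.17 in the 3 sets, because iLuc and iEF nearly coincided in set 1.

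C3 was at 0.275, 0.673 and 0.806 CPM in iLuc, 1.60, 2.29 and 6.14 CPM in iEF and 0.388, 0.370 and 0.293 CPM in WT-EF. The iEF libraries lay above all iLuc and WT-EF libraries. The log2 fold change was -2.45 ± 0.76 for iLuc over iEF and -3.06 ± 0.81 for WT-EF over iEF, and the share covered by WT-EF was 1.07 ± 0.14 (SD, n = 3). CFB, which acts with C3 in the alternative pathway, was between 0.166 and 0.715 CPM in all 15 libraries and averaged 13.8 counts. Its log2 fold changes over iEF lay between -0.62 ± 0.43 with iLuc and 0.03 ± 0.41 with Δ22, and all neighbouring conditions overlapped. At this depth no difference in CFB was detectable.

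**Figure D2:**
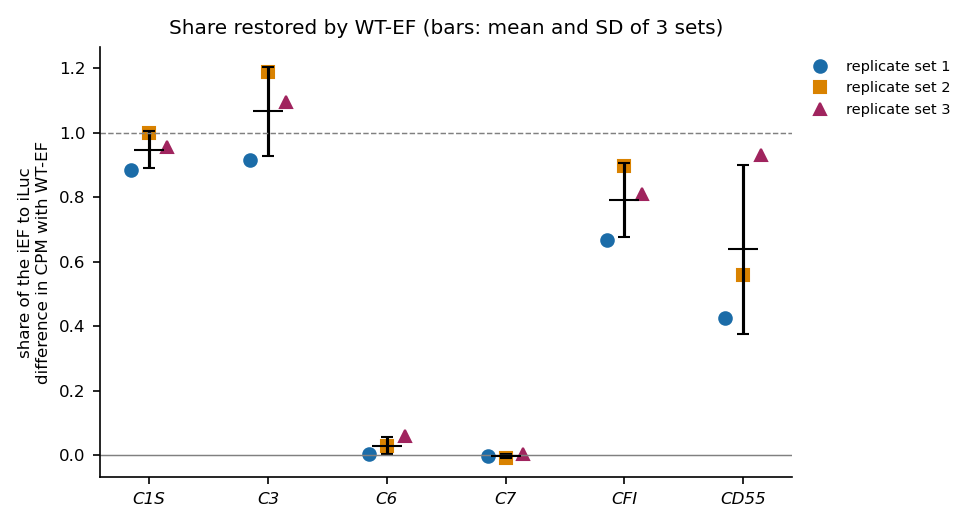
Share of the difference in CPM from iEF (0, solid line) to iLuc (1, dashed line) seen in WT-EF cells, in each of 3 replicate sets, with the mean and SD, for 6 members whose iLuc and iEF libraries did not overlap (C1R is left out since its difference in set 1 was too small). C1S and C3 lay near 1, CFI at 0.791 and CD55 at 0.639 on average, and C6 and C7 near 0.

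Replicate 3 of Δ22 and replicate 3 of DAF stood apart in the initiating and central components. With Δ22, C1S was at 4.63, 10.4 and 76.1 CPM, C1R at 3.66, 6.62 and 39.7 CPM, and C3 at 0.938, 1.56 and 26.4 CPM. With DAF, C1S was at 6.26, 11.0 and 79.2 CPM, C1R at 4.25, 6.89 and 34.3 CPM, and C3 at 0.597, 1.03 and 9.29 CPM. Replicate 3 exceeded the mean of replicates 1 and 2 by 10.1 times for C1S, 7.71 times for C1R and 21.1 times for C3 with Δ22, and by 9.19, 6.16 and 11.4 times with DAF. The same ratio was 1.03 for C1S in iEF, 1.12 in WT-EF and 1.01 in iLuc. CFI was higher by 2.05 and 2.44 times in replicate 3 of Δ22 and DAF, and SERPING1 by 2.40 and 2.88 times, while CD55 had ratios of 1.11 and 0.723.

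These libraries decide the direction for C1S with Δ22 and DAF, and for C3 with Δ22. Within set 3, C1S was 6.48 times its iEF level with Δ22 and 6.74 times with DAF, whereas in sets 1 and 2 it was between 0.644 and 0.941 times. With all libraries the log2 fold change of C1S was 0.56 ± 0.65 for Δ22 over iEF and 0.69 ± 0.65 for DAF over iEF. Without the pair of libraries these became -0.60 ± 0.30 and -0.35 ± 0.29. For C3 they went from 0.64 ± 0.64 to -0.94 ± 0.39 with Δ22 and from -0.48 ± 0.65 to -1.55 ± 0.41 with DAF. C1R kept its sign but moved from -0.10 ± 0.56 to -1.01 ± 0.34 with Δ22. With DAF, C1R moved from -0.15 ± 0.56 to -0.88 ± 0.34. C3 with DAF then passed the cutoff of an adjusted p under 0.05. Nothing is read from that call, since C3 was chosen, and these libraries were left out, with their values known. The log2 fold change of WT-EF over DAF remained negative for C1S without them, at -2.67 ± 0.32 against -3.89 ± 0.77. The fit without both libraries was added after their values were seen.

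**Figure D3:**
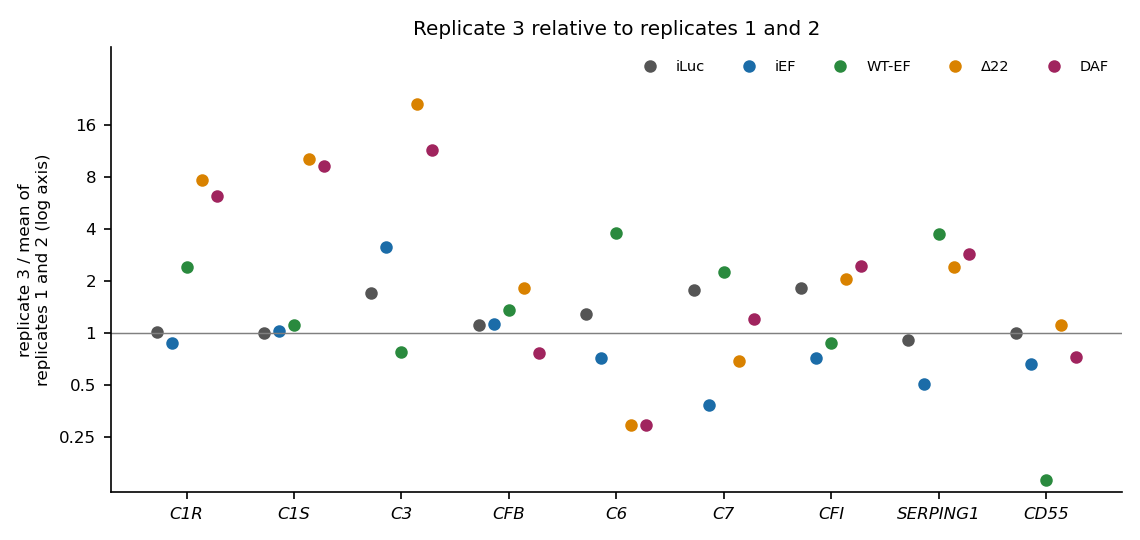
Ratio of replicate 3 to the mean of replicates 1 and 2 on a log axis, for each member and condition. For C1R, C1S and C3 the ratio was between 6.16 and 21.1 with Δ22 and DAF, and between 0.773 and 3.15 in the other 3 conditions.

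Compared per kilobase of annotated exon, the highest mean level among the members in iLuc was that of C7 (5.62 CPM per kb), followed by C6 (2.63) and C1R (1.35), with the other 6 at most 0.334 CPM per kb. In iEF the order was led by CFI (7.35 CPM per kb), followed by C1R (2.40), C1S (1.39) and CD55 (0.836), while C6 and C7 were at 0.0106 and 0.0357 CPM per kb. With WT-EF, CFI (1.62 CPM per kb) and C1R (0.748) led, and CD55 had 0.367 CPM per kb. CFI thus led in all 4 conditions that carried the iEF shRNA, at 7.55 CPM per kb with Δ22 and 12.1 with DAF. The lengths join all annotated exons of a gene, 4696 bases for C1R, 8295 for C1S and 10254 for CD55. They can exceed the transcripts made here. Without this scaling the iEF means of C1S (11.5 CPM) and C1R (11.3 CPM) were alike, so the order of C1R, C1S and CD55 depends on these lengths.

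**Figure D4:**
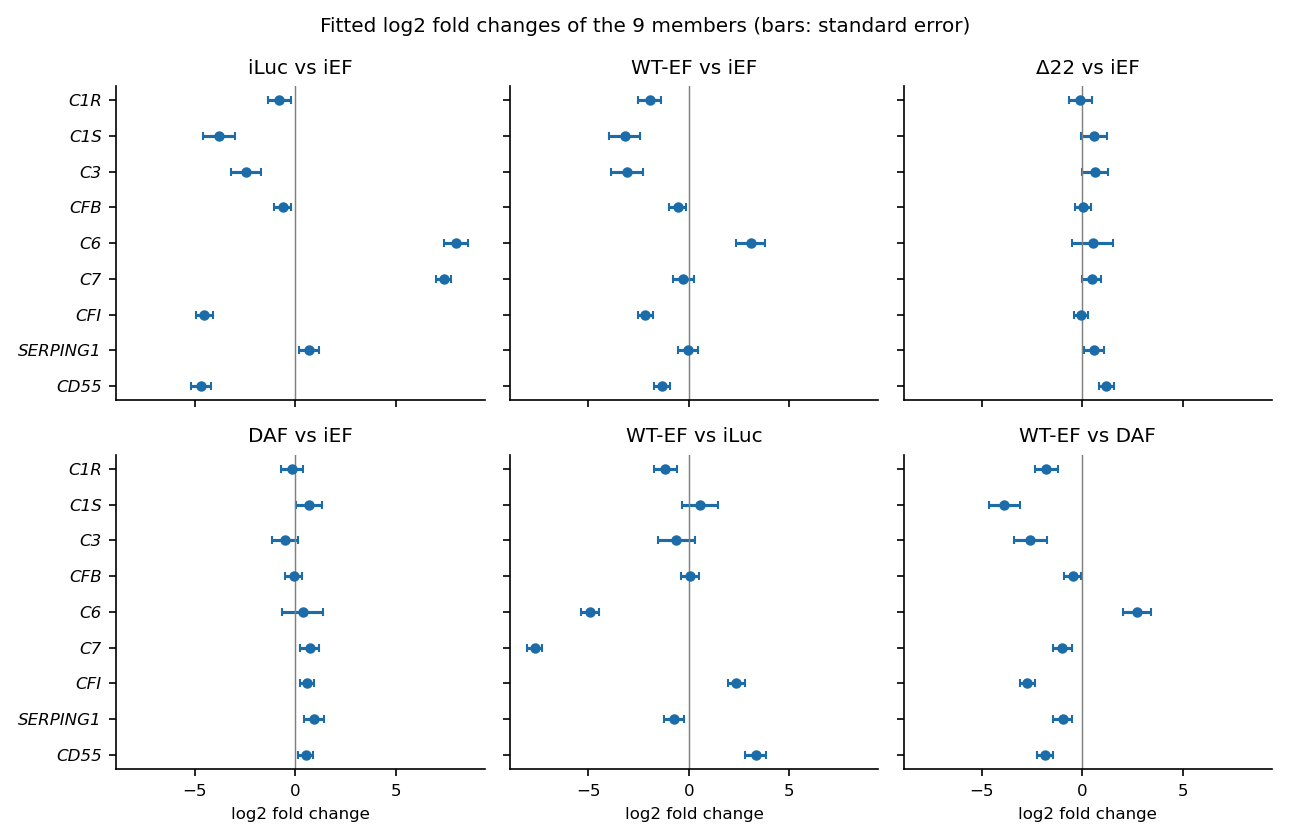
Fitted log2 fold changes of the 9 members in 6 comparisons, with bars for the standard error, over 3 libraries per condition. C6 and C7 were above 7 in iLuc over iEF, CFI and CD55 below -4, and no member reached beyond 1.18 in either direction for Δ22 or DAF over iEF.

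Over the fit of 28793 genes, 2 members were past the cutoff as higher and 4 as lower in iLuc than in iEF, where 19.5% of all genes were called higher and 22.1% lower. For WT-EF over iEF, 1 member (C6) was higher and 5 were lower (C1R, C1S, C3, CFI and CD55), where 12.9% and 17.0% of all genes were called. With Δ22 over iEF no member was past the cutoff of edgeR, where 0.472% of genes were called higher and 0.83% lower. DESeq2 also called none, and 1 member had an unadjusted p under 0.05. With DAF over iEF no member was past the cutoff by edgeR or DESeq2, and 0 had an unadjusted p under 0.05, where 5.0% and 6.19% of genes were called. For WT-EF over iLuc, 2 members were higher (CFI and CD55) and 2 lower (C6 and C7), where 10.7% and 9.03% of genes were called. For WT-EF over DAF, 1 member was higher (C6) and 5 were lower, where 12.4% and 16.1% were called. Nothing is read from these counts, since the members were picked with their values known, and the 4 comparisons over iEF share its libraries. The median log2 fold change over the 9 members was -0.78 for iLuc, -1.34 for WT-EF, 0.51 for Δ22 and 0.53 for DAF over iEF, against 0.04, -0.01, 0.01 and 0.00 for all genes tested. Without replicate 3 of Δ22 and of DAF, the median turned to -0.20 for Δ22 and was 0.16 for DAF, the counts for iLuc and WT-EF over iEF were the same, C1R was also lower in WT-EF than in iLuc, and C1R and C6 were no longer past the cutoff for WT-EF over DAF.

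Beyond the members, 44 other complement genes were listed, of which 26 passed the low count filter of a mean of at least 1 count and were tested. In iLuc over iEF, 5 of the 26 rose, among them C5, CFD, ITGB2 and C1QBP, and 6 fell (C4A, C4B, MBL2, CD46, CD59 and C5AR2), where 19.5% of all genes were called higher and 22.1% lower. The call of MBL2 held in 7 of 24 alternatives. MBL2 and C4B had no count in any iLuc library and at most 7 in an iEF library, so no fold is given for them, and C4A and C4B are near-identical copies between which reads may be split. For WT-EF over iEF, 2 rose (C3AR1 and ITGAM) and 5 fell (C4A, VTN, CD46, CD59 and C5AR2), against 12.9% and 17.0% of all genes. The call of VTN (edgeR adjusted p 0.0484) held in 4 of 25 alternatives, and those of VTN and MBL2 were both lost without replicate 3 of Δ22 and of DAF (edgeR adjusted p 0.0682 and 0.0672). For DAF over iEF, 5 rose, among them C3AR1, C5AR2, ITGAM and ITGAX, and 2 fell (C5 and C1QBP), against 5.0% and 6.19% of all genes. Without replicate 3 of Δ22 and of DAF, 3 calls were left, among them C3AR1 and ITGAM. For Δ22 over iEF, edgeR called 0 of 26, with 7 at an unadjusted p under 0.05, and DESeq2 called 2, where edgeR called 0.472% of all genes higher and 0.83% lower. WT-EF over iLuc had 4 that rose and 5 that fell (10.7% and 9.03% of all genes), and WT-EF over DAF had 3 and 5 (12.4% and 16.1% of all genes).

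CD59, which blocks the assembly of the membrane attack complex, had the lowest adjusted p of the list. Its levels were 163, 140 and 173 CPM in iLuc, 3096, 2323 and 2747 CPM in iEF and 570, 462 and 224 CPM in WT-EF. The iLuc libraries lay below all WT-EF libraries, and these below all iEF, Δ22 and DAF libraries, which is the order also seen for CFI. CD59 fell in iLuc over iEF by 4.09 ± 0.23 on the log2 scale (edgeR adjusted p 7.65e-09) and in WT-EF over iEF by 2.72 ± 0.22 (6.17e-07), and was higher in WT-EF than in iLuc (1.36 ± 0.21, adjusted p 0.000478). CD46, a membrane cofactor of CFI, changed much less, with log2 fold changes of -0.25 ± 0.08 for iLuc (edgeR adjusted p 0.0291) and -0.56 ± 0.08 for WT-EF over iEF (0.000133).

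C5, the substrate from which the membrane attack complex starts, was at 19.7, 22.2 and 29.2 CPM in iLuc, against 10.04, 13.0 and 9.74 CPM in iEF (log2 fold change 1.10 ± 0.21, edgeR adjusted p 0.000701). With WT-EF it was at 7.59, 11.0 and 16.1 CPM, which overlapped iEF. C5 was lower in WT-EF than in iLuc (log2 fold change -1.05 ± 0.21, edgeR adjusted p 0.00301), as C6 and C7 were. Of the other terminal components, C8A was below the filter, and C8B, C8G and C9 passed it with a mean of 1.60, 4.47 and 1.33 counts and were not called in any comparison.

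The receptors for the small cleavage fragments differed from each other. C3AR1, the receptor for C3a, was at 7.78, 8.30 and 10.3 CPM in WT-EF and at most 3.51 CPM in any other library, and rose in WT-EF over iEF by 3.42 ± 0.36 on the log2 scale (edgeR adjusted p 5.41e-06) and over iLuc by 3.09 ± 0.35 (3.99e-05). C5AR2, a receptor for C5a, was at 1.58, 2.08 and 2.58 CPM with DAF and at most 1.21 CPM in all other libraries. It was lower in WT-EF than in DAF (log2 fold change -4.39 ± 0.50, edgeR adjusted p 1.92e-05). The WT-EF libraries held only 0, 6 and 5 counts of C5AR2, against 45, 79 and 77 with DAF, so the size of this fold is uncertain. ITGB2, the shared chain of the complement receptors for iC3b, was higher in iLuc than in iEF (1.71 ± 0.27, edgeR adjusted p 0.000105), and its partner ITGAM rose in WT-EF over iEF (3.33 ± 0.61, adjusted p 0.000668). C1QBP, which binds C1q but is mainly a mitochondrial protein, rose by 0.62 ± 0.11 in iLuc over iEF (edgeR adjusted p 0.000208). ITGAM, ITGAX and ITGB2 are also leukocyte genes, and PTPRC, CD14, LYZ, AIF1, CD163 and CSF1R summed to between 1.22 and 1.70 CPM in WT-EF, 2.58 and 3.91 CPM in iEF, 1.62 and 3.76 CPM in iLuc, 1.76 and 4.04 CPM with Δ22 and 2.64 and 6.24 CPM with DAF. AIF1 had 33, 88 and 55 counts in iLuc against 3, 1 and 0 in iEF and 1, 30 and 23 with DAF. CD14 and CSF1R went the other way between iLuc and iEF. CD14 had 1, 0 and 4 counts in iLuc, 37, 50 and 38 in iEF and 42, 73 and 110 with DAF. CSF1R had 8, 13 and 7 counts in iLuc, 34, 52 and 43 in iEF and 20, 24 and 17 with DAF. The part of these leukocyte markers in the receptor results was not tested.

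**Figure D5:**
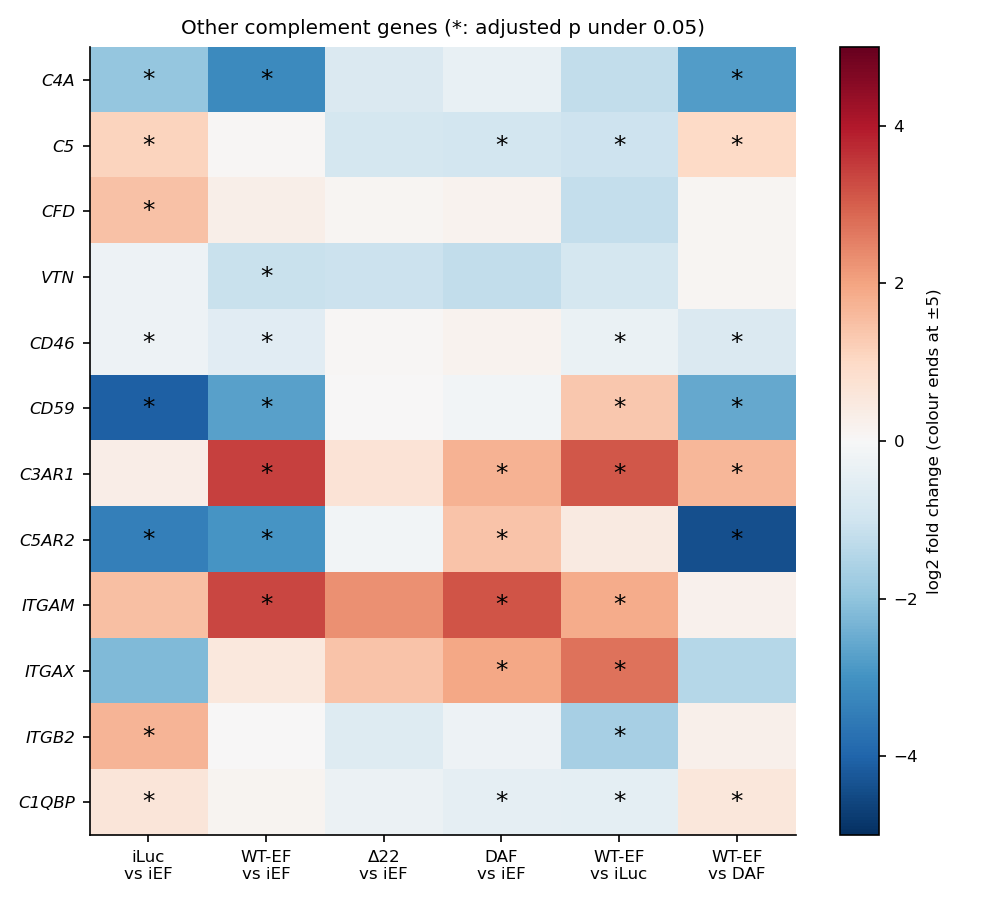
Fitted log2 fold changes in 6 comparisons for 12 of the 15 other complement genes called in at least 1 of them, with stars where the edgeR adjusted p was under 0.05. MBL2 and C4B are not drawn because no iLuc library had a count of them. CD59 fell in iLuc and WT-EF over iEF, C3AR1 rose with WT-EF, and the Δ22 column holds no star.

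By name only, listed genes below the filter included C1QA, C1QB, C1QC, FCN1, FCN2, FCN3, MASP1, C8A, C4BPA, C4BPB, CR1, CR2 and VSIG4. Of the 53 listed genes, members included, 8 had no count in any library, among them the 3 genes of C1q, the recognition subunit to which C1R and C1S bind. Markers of hepatocytes, the main source of plasma complement, summed to between 0.567 and 0.764 CPM in iLuc, 4.89 and 8.96 CPM in iEF, 0.799 and 0.997 CPM in WT-EF, 6.01 and 9.47 CPM with Δ22 and 3.19 and 4.85 CPM with DAF. APOA1 made up most of this sum in iEF, at 5.54, 4.22 and 8.55 CPM, while ALB had at most 6 counts, TTR at most 3 and FGB at most 1 in any library. These markers, like C1S and CFI, were higher in iEF, Δ22 and DAF than in iLuc and WT-EF, and their part in those results was not tested.

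For each member, the genes with the most similar levels were found by Pearson's correlation of log2 CPM over the 15 libraries, among 12720 genes averaging at least 50 counts. The libraries share their conditions and replicate sets, so these correlations are given as a description. C6 was most like GATM (r 0.988), LONRF1 (0.987) and NSD1 (0.982), and C7 was most like ALDH6A1 (0.955), TMEM245 (0.953) and GPD1L (0.951). C1S was most like OGFR (0.983), CEBPD (0.982) and CCL2 (0.982), and C3 was most like NFKBIA (0.953), PTGER4 (0.951) and SLC39A14 (0.9497). The nearest genes to C1R were PKNOX2 (0.962), PSME1 (0.947) and VCAM1 (0.930). CFI was closest to STAT5A (0.984), OAF (0.983) and SCARB2 (0.980), and CD55 to ABL2 (0.987), EREG (0.986) and MSL3 (0.983). For SERPING1 they were TSHZ2 (0.923), EGR3 (0.894) and BCAS3 (0.885), and for CFB they were COG3 (0.778), CRELD1 (0.772) and HSPA12A (0.770). Among the members themselves, the closest pairs were C6 with C7 (0.922), C1S with CFI (0.898), C1S with C3 (0.894) and CFI with CD55 (0.893).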

How the data were processed

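RNA-seq of 15 A673 libraries was analysed. The authors aligned reads to hg19 with STAR (2.5.1b per the labels) and counted them per gene with htseq-count, and the deposited counts are whole numbers without normalization. A deposited signal table of 27002 genes holds counts after the authors' ComBat adjustment and served for an alternative. It lacks C6 and C7. Another table holds the authors' own fold changes and p-values and was not used, and neither were 3 columns of other samples. Coordinates are of GRCh37 (GENCODE v44 lifted).

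In R 4.3.3, edgeR 4.0.16 fitted 1 quasi-likelihood model to all libraries, in which the condition was a term and the replicate number a block, for 28793 genes averaging at least 1 count, after TMM scaling. P-values were adjusted by Benjamini-Hochberg within each of 6 comparisons, with a cutoff of 0.05. The standard error is the log2 fold change divided by the square root of the F statistic. CPM similarity used a prior count of 2. The block follows the study's ComBat adjustment by replicate set, and deviations from condition means correlated with a median r of 0.185 within a number (30 pairs) and -0.0842 between numbers (60 pairs), over 13178 genes. Replicates of a condition differed by more than sampling noise. Intervals for pooled count ratios are exact binomial at 95% and cover counting error only.

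Named genes are the members, FLI1, other listed complement genes called in at least 1 comparison (by name those below the filter), and the 3 genes most like each member. Members, lists and tests were chosen with earlier results of these data known. Some listed genes count in the totals but are not reported here by name. Of the gene identifiers, 43521 had a symbol. Alternatives used DESeq2 1.42.0, limma 3.58.1, other filters and left-out libraries. The script was tested on simulated data.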

Additional observations from a re-analysis of the deposited data

How the results depend on the processing

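All 22 pairs of a member and a comparison past the cutoff kept their sign wherever they had a value, 16 of them in 26 alternatives and the 6 of C6 and C7, which the ComBat-adjusted table lacks, in 25. The count of members past the cutoff for WT-EF over iEF was 6, and 3 with no replicate block, 4 without WT-EF replicate 2 or 3, 4 without iEF replicate 1 and 2 without replicate 2 of all conditions. For iLuc over iEF it was 6, 8 when only the 6 libraries compared were fitted and 4 by limma. The limma calls were C1S, C3, CFI and CD55, and the 2 not called, C6 and C7, are absent from the ComBat-adjusted table that limma used. For WT-EF over DAF it was 6, 8 with no low count filter, 7 with only the 6 libraries compared, 3 by limma, 4 with no replicate block and 3 without DAF replicate 3, WT-EF replicate 3 or replicate 2 of all conditions. For WT-EF over iLuc it was 4, and 2 by limma on the ComBat-adjusted table, where the median over the 7 members present was 0.020 instead of -0.61 since C6 and C7 are absent. Without the low count filter, 1 member was called for Δ22 and 2 for DAF over iEF, and without replicate 3 of all conditions 2 for each, with 6 for WT-EF over iLuc. For Δ22 over iEF, 1 was also called when only the 6 libraries compared were fitted and without WT-EF replicate 3.

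Of the other listed genes, 0 were called for Δ22 over iEF, and 2 by DESeq2, 3 with no low count filter and 1 when only the 6 libraries compared were fitted. For DAF over iEF the 7 calls became 4 with no replicate block and 3 without replicate 3 of Δ22 and DAF. The replicate block changed no other of these counts by over 1.5 times. With 1 library or replicate number left out, the calls ranged from 5 (without replicate 2) to 14 for iLuc over iEF, 6 to 8 for WT-EF over iEF, 0 to 2 for Δ22 over iEF, 1 (without replicate 2) to 7 for DAF over iEF, 6 to 9 for WT-EF over iLuc and 7 to 9 for WT-EF over DAF. The median log2 fold change of the members ranged from -1.48 to -0.37, -1.97 to -0.80, -0.26 (without Δ22 replicate 3) to 0.97, 0.05 to 1.07, -1.08 to 0.044 (without WT-EF replicate 3) and -2.07 to -1.17 in that order. The median share covered by WT-EF, over the 7 members whose iLuc and iEF libraries did not overlap, was 0.791 and ranged from 0.739 to 0.854. These 7 include C1R, whose share was not stable. The median of 0.791 is the share of CFI itself, while C6 and C7 lay near 0 and C1S and C3 near 1. The other 2476 values, for single genes, gave 2264 that stayed the same, 143 that lost the cutoff and 69 that moved. Staying the same meant a shift under 1 within-condition SD for a member, and a kept cutoff for another gene. Reversal was looked for only where the main fit had passed the cutoff, and 0 were found there. C1S with Δ22 and DAF and C3 with Δ22, which had not passed it, turned sign without replicate 3 of Δ22 and DAF. So did CFB with Δ22 and DAF and SERPING1 with WT-EF, all over iEF, where every value was smaller than its standard error.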
